A study of Mus musculus with 12 samples.

Results

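The 4 JAK kinases (Jak1, Jak2, Jak3 and Tyk2) and 6 proteins that restrain them or their targets (Sh2b3, Cbl, Ptpn6, Ptpn11, Ptpn2 and Pias1) were followed in mouse blood cells with and without Stat5a and Stat5b. Members were the probe sets to which the array annotation gives exactly 1 gene symbol, equal to the name of a listed gene. This gave 26 probe sets for the 10 genes, of 45101 probe sets and 18194 singly annotated genes on the array. Of these, 21 were bright enough to be tested, among 18864 tested probe sets in all. The 5 others, which were dim, belonged to Tyk2, Sh2b3, Cbl, Ptpn11 and Ptpn2, and each of these genes kept at least 1 tested probe set.

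Many cytokine receptors have no kinase activity of their own and carry JAK kinases on their inner tails. When the cytokine brings receptor chains together, the JAKs activate each other, phosphorylate the receptor and create docking sites for STAT proteins, which then move to the nucleus. In blood-forming cells, Jak2 serves the receptors for erythropoietin, thrombopoietin, interleukin-3 and GM-CSF, and Stat5a and Stat5b are its main STATs. The signal is ended by adaptors that hold JAKs down, by ubiquitin ligases, by phosphatases and by proteins that bind STATs in the nucleus.

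The 12 arrays formed 4 groups of 3, named by genotype (control, or knockout of Stat5a and Stat5b) and by the plus or minus sign of the array title. The treatment labels describe plus arrays as given CMP and minus arrays as not given it. Some titles attach the letters CMP to arrays of both signs, so the labels do not settle whether CMP was given or names the cells, and the groups are called plus and minus arrays here. The alleles, the way Stat5 was removed, the mouse strain, the ages and the kind of blood cell are not given in the labels. Whether arrays of a group came from separate animals is not given either, so the p-values measure only the spread between these arrays, which may be technical. The titles follow 3 patterns, which are treated here as naming sets A, B and C, and every group has 1 array in each set. The array titled KC-, the knockout minus array of set B, is called a control by its treatment label and was grouped by its title.

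The array signal of the deleted genes separated the genotypes. Stat5a lay at 660 to 1436 in the 6 control arrays and at 28.9 to 90.1 in the 6 knockout arrays, and Stat5b at 1036 to 2177 and at 7.28 to 82.8. The array titled KC- is among these 6 knockout arrays, so its Stat5a and Stat5b signals lay with the knockouts. The arrays of a naming set deviated together from their group means (correlation across probe sets of 0.41 to 0.76 in 18 pairs). In 6 of 6 pairs of plus and minus arrays, the log2 ratio of the 3' to the 5' probe set of beta-actin, which rises as RNA degrades, was higher in the plus array, by 0.24 to 1.63. The beta-actin ratio was 4.30 to 5.78 in set B and 0.25 to 2.14 in sets A and C. The same ratio for Gapdh was higher in the plus array by 0.59 to 2.31, except in the control pair of set B, where it differed by -0.01. The summed signal of 7 erythroid markers was 6949 to 39770 in control minus arrays against 1532 to 4595 in control plus arrays, and 5785 to 21660 against 751 to 2093 in the knockouts, and 4 of the 5 tested markers fell in each genotype. That of 9 mast cell and basophil markers was 7704 to 9623 against 2819 to 4840 in controls, and 7593 to 9674 against 1344 to 7617 in knockouts, and 1 and 2 of 5 tested markers fell. Of 7 megakaryocyte markers 2 fell in each genotype, with median log2 differences of -0.48 and -0.57. Of 11 neutrophil markers 2 fell in controls and 1 in knockouts, with medians of -0.46 and -0.78. Of 5 tested monocyte and macrophage markers 1 rose in each genotype. Over all 10583 genes tested, 20.6% were called in controls and 16.9% in knockouts. The share of erythroid markers was 80% in each genotype, and that of megakaryocyte markers 28.6%. Mast cell and basophil markers had 20% and 40%. The shares of neutrophil markers (18.2% and 9.09%) and of monocyte and macrophage markers (20% in each) lay near or below those of all genes. The summed signal of 7 progenitor markers was 37740 to 43020 in control minus arrays against 30680 to 34850 in control plus arrays, and 38190 to 41290 against 16360 to 37310 in knockouts. These markers did not move together: 1 rose and 1 fell in controls, and 0 rose and 1 fell in knockouts, with medians of -0.30 and -0.36. No marker had a signal of 0. The part of cell composition in the results below was not tested, and in bulk RNA fewer cells of a type cannot be told apart from less RNA per cell.

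Sh2b3 and Jak2 were the genes of the group that rose. Sh2b3, an adaptor also known as LNK that binds Jak2 and the thrombopoietin receptor and dampens their signal, was about 3.5-fold higher in plus than in minus arrays of both genotypes. Jak2 was 1.53- to 1.58-fold higher. The stretches of 250 bases before their annotated starts (RefSeq, build GRCm38.p6) are shown, 5' to 3' on the strand of the gene, because these were the only promoters of members whose transcripts passed the test. Capitals mark CpG dinucleotides. Jak2 starts on the plus strand after chr19:29251553-29251802, and Sh2b3 on the minus strand after chr5:121836105-121836354.
Jak2: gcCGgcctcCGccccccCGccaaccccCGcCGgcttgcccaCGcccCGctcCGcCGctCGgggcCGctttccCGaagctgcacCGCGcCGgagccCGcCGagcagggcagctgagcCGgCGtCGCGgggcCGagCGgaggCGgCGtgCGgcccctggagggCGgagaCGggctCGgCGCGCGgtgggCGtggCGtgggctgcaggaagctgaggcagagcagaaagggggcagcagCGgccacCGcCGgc
Sh2b3: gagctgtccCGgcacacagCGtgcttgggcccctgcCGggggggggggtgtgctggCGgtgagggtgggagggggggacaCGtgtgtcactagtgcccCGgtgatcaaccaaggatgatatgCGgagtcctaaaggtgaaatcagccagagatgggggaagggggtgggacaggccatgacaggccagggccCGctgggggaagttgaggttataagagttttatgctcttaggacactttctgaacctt
The Jak2 stretch was 80.8% G or C with 37 CpG dinucleotides, and the Sh2b3 stretch 60.8% with 8. Over the 9 members whose promoter was searched (all but Ptpn2), the median was 63.2% G or C with 19 CpG dinucleotides, against 52.4% and 6 over 32851 promoters of the table. Ptpn2 was left out by its chromosome, a filter that was not applied to the 32851 promoters. The STAT5 motif TTCNNNGAA was found in 0 of the 9, and in 7.02% of all promoters of this length. The AP-1 motif TGANTCA was found in 0 of the 9, and in 6.75% of all. Both motifs read the same on either strand, and matches of one may share letters with the other. No match says only that these letters are absent from this window.

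Sh2b3 (probe set 1433455_at) had signals of 784, 497 and 721 in the control minus arrays of sets A, B and C, and of 2574, 1901 and 2785 in the control plus arrays. In the knockouts it had 909, 702 and 747 in minus arrays and 2401, 3138 and 3148 in plus arrays. Every plus array lay above every minus array in both genotypes. The share of all tested probe sets whose groups of 3 arrays did not overlap was not counted, here or for the genes below. A lack of overlap is therefore given as a description only. The log2 difference was 1.82 ± 0.21 in controls (SE, n = 3 arrays a group; adjusted p = 0.0003659) and 1.84 ± 0.21 in knockouts (adjusted p = 0.0004028), both by limma with Benjamini-Hochberg adjustment over all tested probe sets. In folds of signal + 32, the scale of all folds here, these were 3.52 and 3.57. The differences within sets A, B and C were 1.68, 1.87 and 1.90 in controls and 1.37, 2.11 and 2.03 in knockouts. With the beta-actin ratio added to the fit they were 1.80 (adjusted p = 0.009571) and 1.82 (adjusted p = 0.01913). The second Sh2b3 probe set, 1450183_a_at, was dim and not tested. Its signal was 21.2 to 63.7 in control minus arrays and 79.0 to 137 in control plus arrays, without overlap, and 28.3 to 113 against 61.9 to 128 in knockouts, with overlap.

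Jak2 is the kinase bound to the erythropoietin, thrombopoietin and GM-CSF receptors. Its brighter probe set, 1421066_at, had signals of 2993, 3104 and 2676 in the control minus arrays of sets A, B and C, and of 4618, 4597 and 4645 in the control plus arrays. In the knockouts it had 2273, 2967 and 2422 in minus arrays and 4445, 3765 and 3528 in plus arrays. Plus and minus arrays did not overlap in either genotype. The log2 difference was 0.66 ± 0.16 in controls (SE, n = 3 a group; limma adjusted p = 0.01618) and 0.61 ± 0.16 in knockouts (adjusted p = 0.02671), or 1.58-fold and 1.53-fold. It was above 0 in each set, at 0.62, 0.56 and 0.79 in controls and at 0.96, 0.34 and 0.54 in knockouts. The Jak2 calls were close to the threshold. In controls the call was lost without the minus array of set A, B or C or the plus array of set C (adjusted p = 0.05251 to 0.07554), with differences of 0.60 to 0.67. In knockouts it was lost without the plus or the minus array of set A or of set C (adjusted p = 0.0613 to 0.1217), with differences of 0.50 to 0.65. With the beta-actin ratio added to the fit the differences were 0.54 (adjusted p = 0.1586) and 0.48 (adjusted p = 0.2934). With arrays centred on their medians, which moved the median of all probe sets to -0.18 in controls and -0.11 in knockouts, the call was lost in both genotypes, at 0.46 (adjusted p = 0.1073) and 0.55 (adjusted p = 0.07352).

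The dimmer Jak2 probe set, 1421065_at, moved in opposite directions between the naming sets. Its signals in control minus arrays of sets A, B and C were 593, 613 and 692, and in control plus arrays 1021, 319 and 1127. In the knockouts they were 403, 388 and 523 in minus arrays and 935, 228 and 758 in plus arrays. Sets A and C were higher in plus arrays and set B was lower, in both genotypes. The fitted log2 differences were 0.18 ± 0.36 (adjusted p = 0.7648) and 0.32 ± 0.36 (adjusted p = 0.5875). Without set B they were 0.72 (adjusted p = 0.02957) and 0.83 (adjusted p = 0.02017). Set B was also the set with the highest beta-actin ratios. Its part in this difference was not tested.

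**Figure D1:**
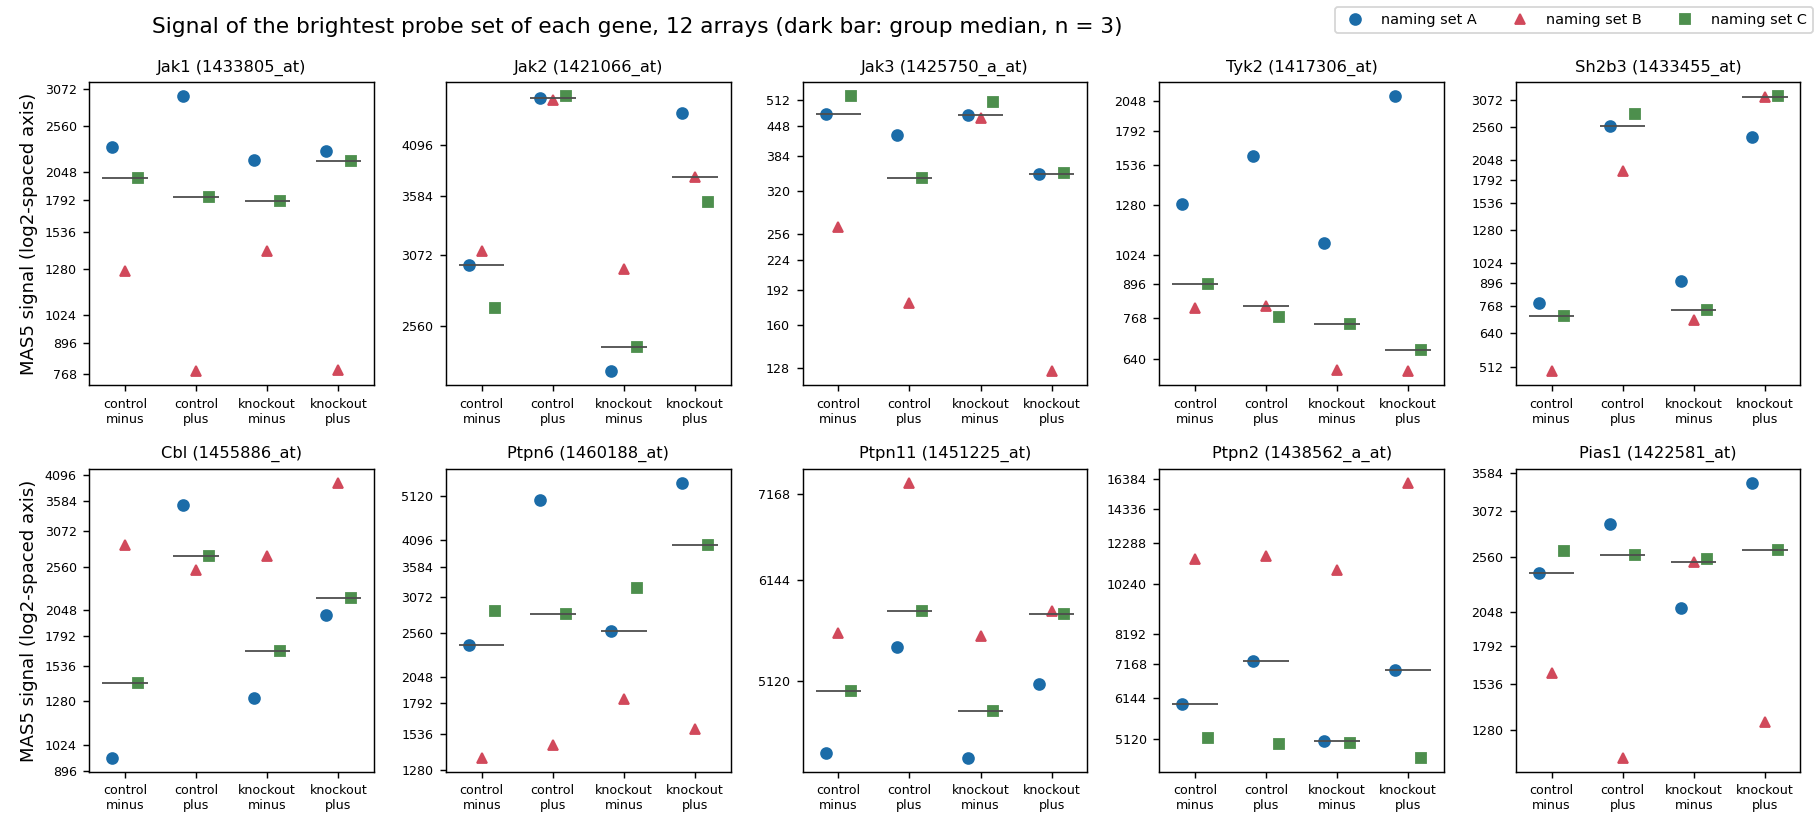
MAS5 signal (log2-spaced axis, a different range in each panel) of the brightest probe set of each of the 10 genes in the 12 arrays. Symbols give the naming set and dark bars the group median of 3 arrays; Sh2b3 and Jak2 plus arrays lie above the minus arrays of the same genotype, while in Jak1, Ptpn6 and Ptpn2 the triangles of set B lie apart from the other sets.

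Of the 21 tested probe sets, 2 were called in controls, both higher in plus arrays (9.52%), where 18.6% of all tested probe sets were called (1825 higher and 1688 lower, so that 51.9% of calls were higher, against 29.8% with arrays centred on their medians). The same counts were found in knockouts, where 14.6% of all tested probe sets were called. The share of members called was therefore not above that of the whole array. Without set B, 6 of 22 tested members were called in controls and 3 of 22 in knockouts, where 27.2% and 22.5% of all tested probe sets were called. Without set A, 1 of 20 was called in each genotype, with 6.73% and 4.36% of all tested probe sets. Without set C, 1 of 21 was called in each, with 3.72% and 2.02% of all. The median log2 difference of the 21 was 0.16 in controls and 0.19 in knockouts, against 0.02 and -0.04 over all tested probe sets.

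The other kinases did not pass the test. Jak3, which binds the common gamma chain of the interleukin-2 family of receptors, had control signals of 476, 266 and 522 in minus arrays of sets A, B and C and 428, 179 and 343 in plus arrays. In the knockouts its signals were 473, 468 and 505 in minus arrays and 349, 126 and 352 in plus arrays. Every knockout plus array lay below every knockout minus array, whereas the control groups overlapped, and the share of all probe sets with such a pattern was not counted. The log2 difference was -0.85 ± 0.27 in knockouts (limma adjusted p = 0.05189) and -0.40 ± 0.27 in controls (adjusted p = 0.3195). In knockouts it was -0.41, -1.66 and -0.49 within sets A, B and C, and it passed the threshold without the control plus array of set B (adjusted p = 0.04808). That array is not part of this difference and enters through the shared estimate of spread, the level filter and the adjustment of p-values. Only 1 probe set carries the symbol Jak3 alone. The 2 that carry Jak3 together with Insl3 were not used.

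Jak1, which serves interferon and interleukin-6 type receptors, had signals of 2313, 1267 and 1993 in control minus arrays (1433805_at) and of 2965, 780 and 1818 in control plus arrays. Its knockout signals were 2171, 1396 and 1784 in minus arrays and 2273, 784 and 2162 in plus arrays. The plus and minus groups overlapped, and on this probe set the set B array was the lowest of every group. The log2 differences were -0.15 ± 0.25 in controls (95% interval -0.69 to 0.39) and -0.16 ± 0.25 in knockouts (-0.70 to 0.38). On 1433803_at, which was nearly as bright, Jak1 differed by 0.16 ± 0.30 in controls and -0.08 ± 0.30 in knockouts. There set B was not the lowest minus array of either genotype and was the highest in knockouts, at 1760. Tyk2, which serves interferon and interleukin-12 receptors, had signals of 1285, 804 and 897 in control minus arrays (1417306_at) and of 1597, 813 and 772 in control plus arrays. In knockouts it had 1082, 607 and 748 in minus arrays and 2097, 604 and 664 in plus arrays. Set A held the highest array of each group. The log2 differences were 0.04 ± 0.24 in controls and 0.26 ± 0.24 in knockouts (95% intervals -0.49 to 0.57 and -0.28 to 0.79).

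Cbl is a ubiquitin ligase that marks activated receptors and kinases for removal. Its brightest probe set, 1455886_at, had signals of 957, 2868 and 1411 in control minus arrays of sets A, B and C and of 3510, 2524 and 2701 in control plus arrays. In the knockouts it had 1302, 2713 and 1661 in minus arrays and 1993, 3943 and 2174 in plus arrays. The control minus array of set B lay among the plus arrays. The log2 difference was 0.86 ± 0.30 in controls (limma adjusted p = 0.06172) and 0.51 ± 0.30 in knockouts (adjusted p = 0.2698), and the control value was 1.84, -0.18 and 0.92 within the sets. The control value became 1.38 without set B (adjusted p = 0.003703) and 1.29 without the control plus array of set B alone (adjusted p = 0.008718). Without the knockout plus array of set B it stayed at 0.86 with an adjusted p of 0.04653. The second tested Cbl probe set, 1434829_at, differed by 0.30 ± 0.29 in controls and by -0.01 ± 0.29 in knockouts.

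**Figure D2:**
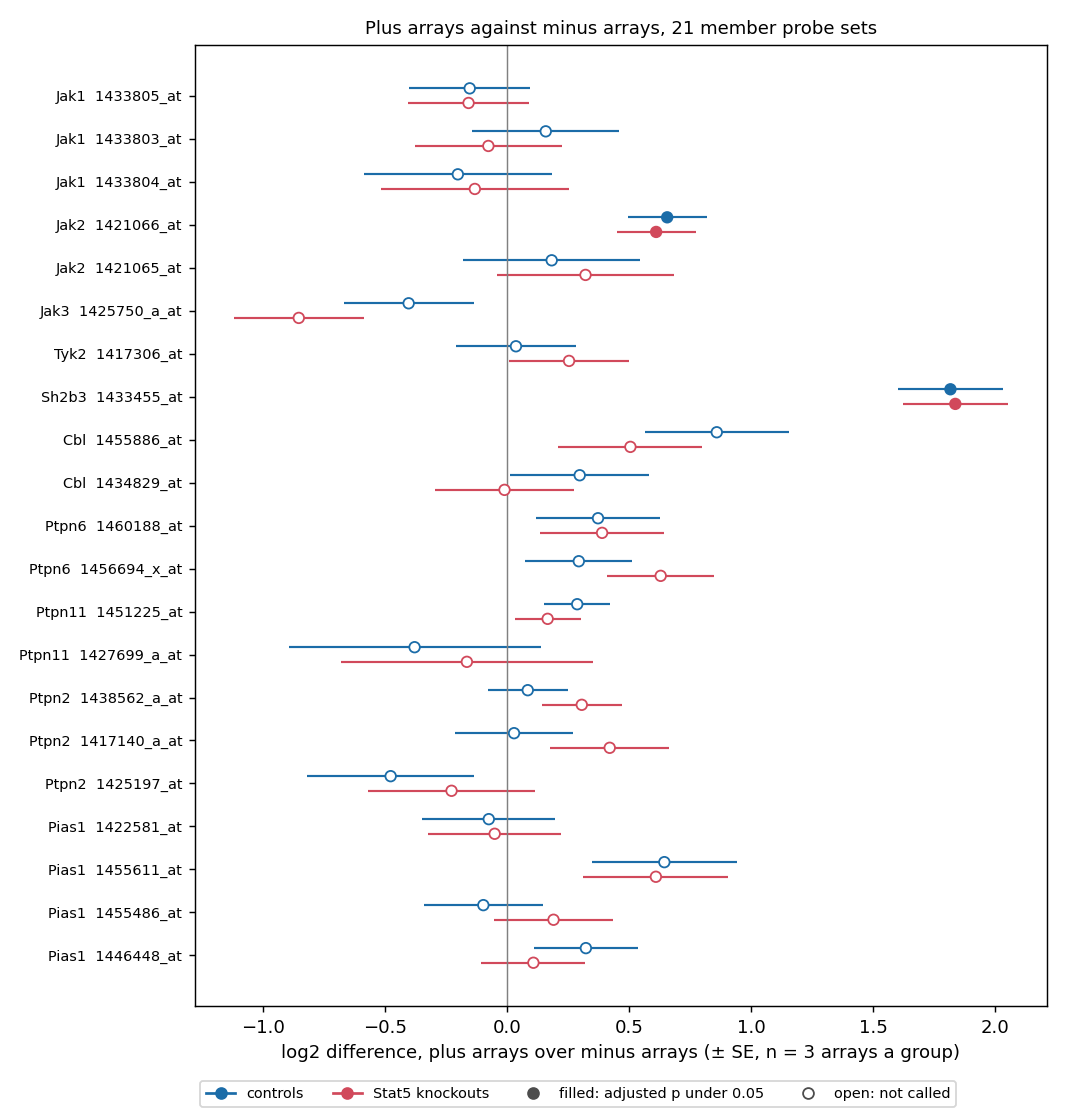
Log2 difference of plus over minus arrays with its standard error (horizontal axis, n = 3 arrays a group) for the 21 tested probe sets, in controls (blue) and Stat5 knockouts (red). Filled points passed the test; they are Jak2 1421066_at and Sh2b3 1433455_at in both genotypes, and the Sh2b3 points near 1.8 lie apart from the rest.

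The 3 phosphatases did not pass the test in either genotype. Ptpn6 encodes the phosphatase SHP-1, which is found in blood cells and removes phosphate from JAKs and receptors. On probe set 1460188_at its signals in sets A, B and C were 2408, 1359 and 2857 in control minus arrays and 5017, 1454 and 2811 in control plus arrays. In the knockouts they were 2591, 1828 and 3220 in minus arrays and 5475, 1575 and 4004 in plus arrays. Set A rose about as far in both genotypes (within-set differences of 1.05 and 1.07), and sets B and C differed by -0.21 to 0.31. The log2 differences were 0.37 ± 0.26 (adjusted p = 0.334) and 0.39 ± 0.26 (adjusted p = 0.3269). On the other probe set, 1456694_x_at, they were 0.30 ± 0.22 (adjusted p = 0.3748) and 0.63 ± 0.22 (adjusted p = 0.07426).

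Ptpn11 encodes SHP-2, a phosphatase that also passes receptor signals on to Ras. Its bright probe set, 1451225_at, had the narrowest intervals among the members. Its signals in sets A, B and C were 4505, 5584 and 5031 in control minus arrays and 5442, 7313 and 5814 in control plus arrays. In the knockouts they were 4462, 5556 and 4851 in minus arrays and 5092, 5805 and 5776 in plus arrays. In each of the 6 pairs the plus array was the higher, with overlap between the groups. The log2 difference was 0.29 ± 0.13 in controls (adjusted p = 0.1561) and 0.17 ± 0.13 in knockouts (adjusted p = 0.4331), with upper 95% bounds of 0.58 and 0.46. The dim Ptpn11 probe set 1427699_a_at was at 5.46 and 8.18 in the lowest control and knockout plus arrays, and its log2 differences were -0.38 ± 0.52 and -0.16 ± 0.52. Without set B its control value turned to 0.64 (adjusted p = 0.04855).

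Ptpn2 encodes the T cell phosphatase, which acts on Jak1, Jak3 and STAT proteins. On probe set 1438562_a_at its signals in sets A, B and C were 5999, 11450 and 5141 in control minus arrays and 7257, 11610 and 5016 in control plus arrays. In the knockouts they were 5080, 10889 and 5025 in minus arrays and 6968, 16083 and 4709 in plus arrays. Set B was the highest of every group. The log2 differences were 0.09 ± 0.16 in controls and 0.31 ± 0.16 in knockouts (adjusted p = 0.7566 and 0.2252). Pias1, a ligase that attaches SUMO to proteins, had log2 differences of -0.07 ± 0.27 and -0.05 ± 0.27 on its brightest probe set, 1422581_at. On 1455611_at it had signals of 514, 297 and 399 in control minus arrays and 605, 617 and 684 in control plus arrays, which did not overlap. Its knockout signals there were 463, 611 and 355 in minus arrays and 712, 1109 and 484 in plus arrays, which overlapped. Those differences were 0.65 ± 0.30 (adjusted p = 0.1505) and 0.61 ± 0.30 (adjusted p = 0.1856). The probe sets of Pias1 therefore gave unlike values, and none of them passed the test.

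Loss of Stat5 was compared within minus arrays and within plus arrays. No member probe set was called by limma in either comparison, and none was below an unadjusted p of 0.05. Over the whole array, 0.0106% of probe sets were called in minus arrays and 0.0106% in plus arrays, which were the probe sets of Stat5a and Stat5b, with 391 and 1718 at an unadjusted p under 0.05. Sh2b3 differed by 0.24 (95% interval -0.23 to 0.71) in minus arrays and by 0.26 (-0.21 to 0.73) in plus arrays. Jak2 1421066_at differed by -0.20 (-0.55 to 0.15) and -0.24 (-0.60 to 0.11). It was lower in the knockout in each set of both comparisons, as were Jak2 1421065_at and Ptpn11 1451225_at, while Ptpn6 1460188_at was higher in each. For Ptpn11 the differences within sets were small, at -0.05 to -0.01 in minus arrays and -0.33 to -0.01 in plus arrays. The other Ptpn6 probe set, 1456694_x_at, had both signs, at -0.70 to 0.09 and -0.11 to 0.23. The share of all tested probe sets with the same sign in every set was not counted. The plus arrays of Jak2 1421066_at lay at 3528 to 4445 in knockouts and at 4597 to 4645 in controls. On 1421065_at Jak2 differed by -0.51 (-1.30 to 0.28) in minus arrays (388 to 523 in knockouts, 593 to 692 in controls). In plus arrays it differed there by -0.37 (-1.16 to 0.42). None of these Jak2 differences passed the test, with limma adjusted p-values of 1 in minus arrays and of 0.5711 and 0.6815 in plus arrays, and their 95% intervals hold 0.

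For the brightest probe sets of the other members, the knockout differences in minus and plus arrays were as follows. Jak1 differed by -0.04 (95% interval -0.58 to 0.50) and -0.04 (-0.58 to 0.50), and Jak3 by 0.23 (-0.35 to 0.81) and -0.22 (-0.80 to 0.36). Tyk2 differed by -0.29 (-0.83 to 0.24) and -0.08 (-0.61 to 0.45). Among the brakes, Ptpn11 had the closest bounds, at -0.02 (-0.32 to 0.27) and -0.15 (-0.44 to 0.15). Ptpn6 differed by 0.23 (-0.33 to 0.79) and 0.25 (-0.31 to 0.81), and Ptpn2 by -0.11 (-0.47 to 0.24) and 0.11 (-0.25 to 0.46). Cbl differed by 0.19 (-0.45 to 0.84) and -0.16 (-0.80 to 0.48), and Pias1 by 0.13 (-0.46 to 0.73) and 0.16 (-0.44 to 0.75). An interval that holds 0 does not show equal expression, and most of these leave room for a change of 0.5 on the log2 scale.

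**Figure D3:**
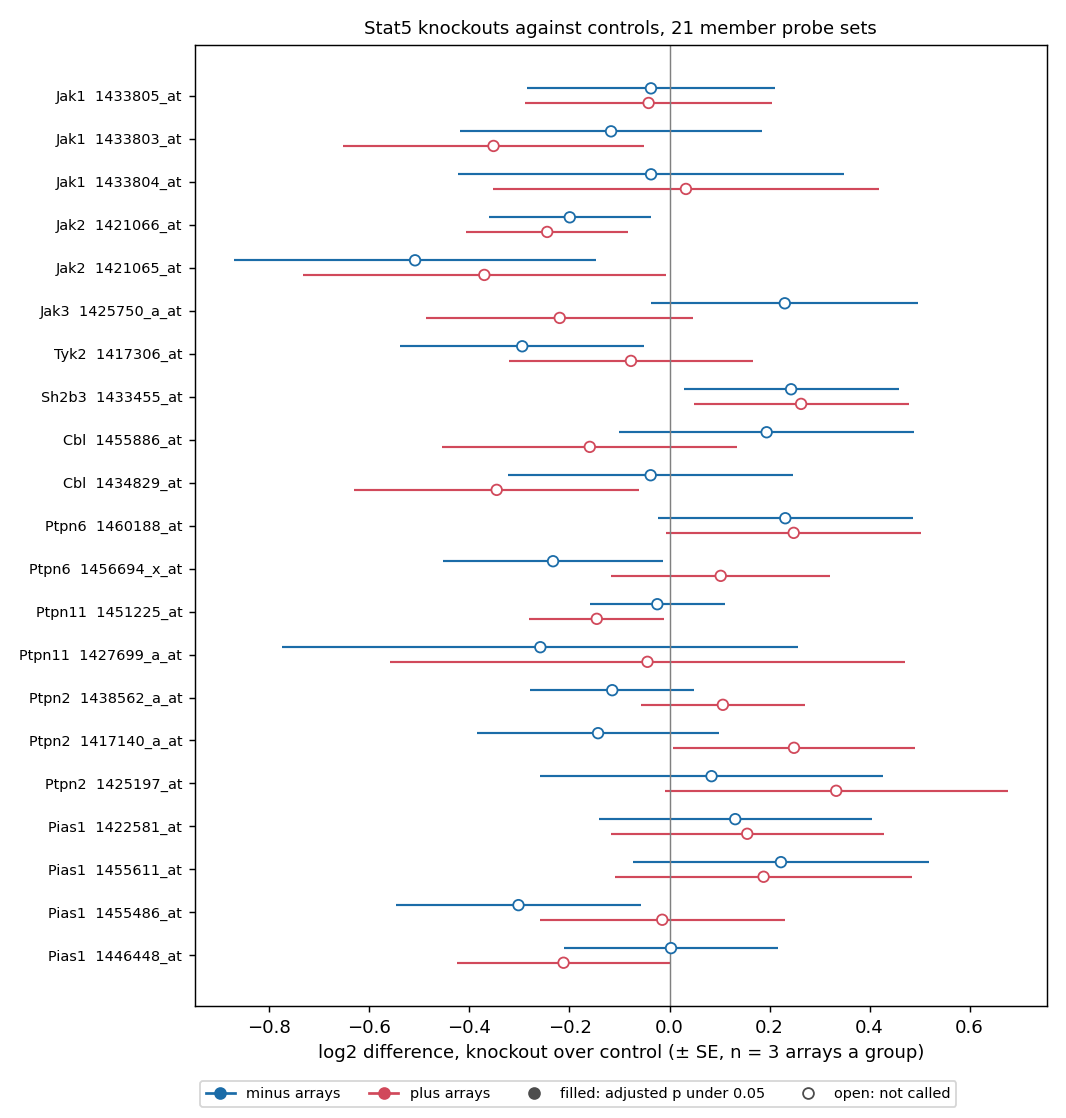
Log2 difference of knockout over control arrays with its standard error (horizontal axis, n = 3 arrays a group) for the 21 tested probe sets, in minus arrays (blue) and plus arrays (red). All points are open because none passed the test; the lowest is Jak2 1421065_at in minus arrays, at -0.51.

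The plus effect was also compared between genotypes. The interaction, which is the plus effect in knockouts less that in controls, was called for 0 of the 21 members, with 0 at an unadjusted p under 0.05. It was called for 0% of all tested probe sets (414 at an unadjusted p under 0.05). For Sh2b3 it was 0.02 ± 0.30 (95% interval -0.64 to 0.68), for Jak2 1421066_at -0.05 ± 0.23 (-0.54 to 0.45) and for Jak3 -0.45 ± 0.38 (-1.27 to 0.37), with limma adjusted p-values of 0.994, 0.9842 and 0.961. The rise of Sh2b3 in plus arrays thus differed between the genotypes by less than its error.

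Naming set B shifted several member probe sets more than the plus sign did, at a share near that of the whole array. In 5 of 21 tested member probe sets (23.8%) the 4 arrays of set B did not overlap the 8 others, against 20.4% of all tested probe sets. Jak1 1433805_at was lower in set B (780 to 1396 against 1784 to 2965), as was Ptpn6 1460188_at (1359 to 1828 against 2408 to 5475). Ptpn2 was higher in set B on 1438562_a_at (10889 to 16083 against 4709 to 7257) and on 1417140_a_at, and so was Pias1 1446448_at (269 to 336 against 101 to 157). Ptpn6 showed the opposite on its other probe set, 1456694_x_at, where set B differed from the others by 1.14 on the log2 scale with overlapping ranges (2332 to 4642 against 1314 to 2418), while on 1460188_at it differed by -1.12. The level of Ptpn6 between sets thus depended on the probe set read. Each set holds 1 array of every group, and the fit carries the set as a block.

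**Figure D4:**
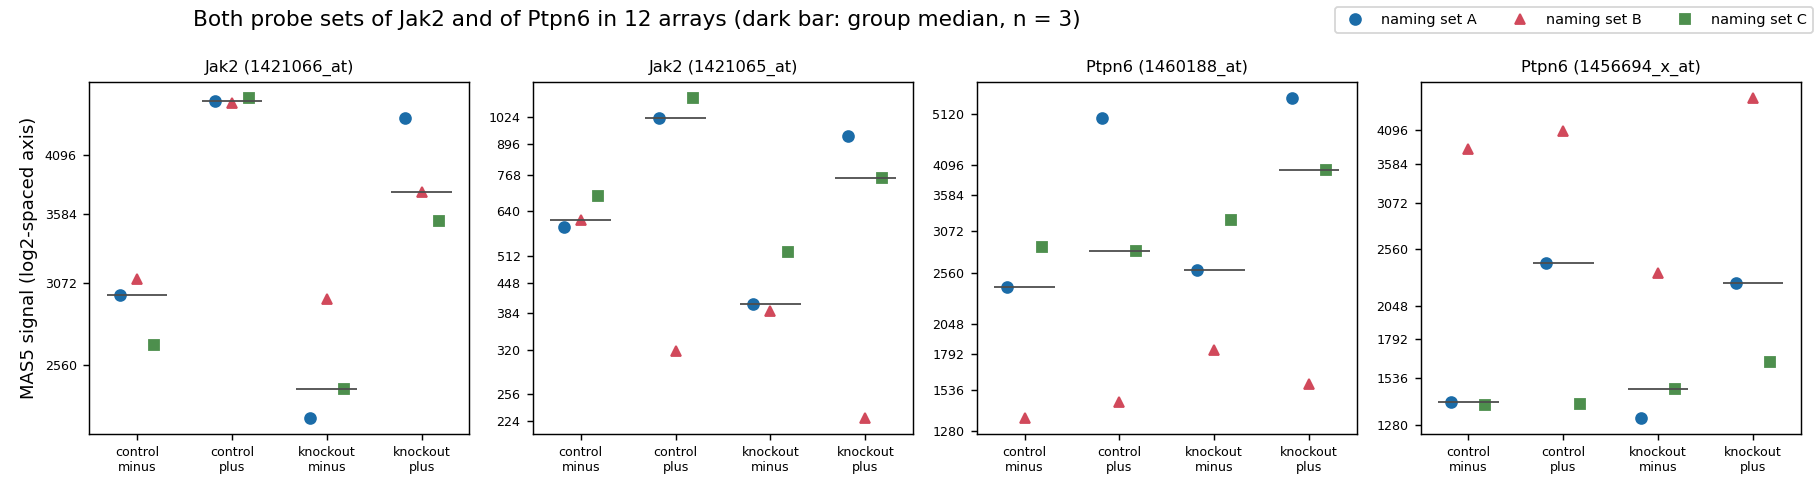
MAS5 signal (log2-spaced axis, a different range in each panel) of both probe sets of Jak2 and both of Ptpn6 in the 12 arrays, with symbols for the naming set and dark bars for the group median of 3 arrays. Set B (triangles) falls from minus to plus arrays on Jak2 1421065_at but rises on 1421066_at, and lies lowest on Ptpn6 1460188_at but highest in every group on 1456694_x_at.

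Other parts of the pathway were read from lists of genes, each by its brightest probe set. A list of 21 other genes that act on JAK signalling, not all of them only as brakes, held 19 that were tested. Of these, 5 rose and 0 fell in plus arrays of controls, and 4 rose and 1 fell in knockouts (limma). Their median log2 difference was 0.39 in controls and 0.04 in knockouts, against -0.02 and -0.06 over all genes tested. The share called was 26.3% in each genotype, against 20.6% and 16.9% of the 10583 genes tested. Cish, a feedback inhibitor that occupies receptor docking sites, rose by 2.31 ± 0.24 in controls and 1.16 ± 0.24 in knockouts. Socs3, which blocks JAK activity directly, rose by 2.48 ± 0.48 in controls and was at 0.63 ± 0.48 in knockouts (adjusted p = 0.4046). Ubash3b, a phosphatase, rose by 0.98 ± 0.24 and 0.89 ± 0.24, and Socs5 by 0.94 ± 0.26 and 1.05 ± 0.26. The receptor phosphatase Ptprc (CD45) rose by 0.49 ± 0.15 and 0.78 ± 0.15, and Sh2b2, an adaptor related to Sh2b3, fell in knockouts by 0.93 ± 0.28. The control value of Ptprc, the knockout value of Socs3 and that of Sh2b2 were picked after the values were seen. In plus arrays the log2 difference of knockout over control was -1.67 ± 0.24 for Cish (adjusted p = 0.09366) and -1.96 ± 0.48 for Socs3 (adjusted p = 0.5421), neither of which passed the test.

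Among 30 receptors that use JAKs, 19 were tested, and 3 rose and 1 fell in plus arrays of controls, against 4 and 0 in knockouts. This was 21.1% in each genotype, against the 20.6% and 16.9% of all genes, and the median log2 differences were 0.19 and 0.20. Csf2rb2 and Csf2rb, the beta chains of the interleukin-3 and GM-CSF receptors that bind Jak2, rose by 4.26 ± 0.33 and 2.81 ± 0.27 in controls and by 3.75 ± 0.33 and 2.36 ± 0.27 in knockouts. Lifr, the receptor of leukemia inhibitory factor, rose by 1.93 ± 0.37 and 2.46 ± 0.37. Ifngr1, a chain of the interferon-gamma receptor, fell by 1.36 ± 0.25 in controls, and Ifnar1 of the type I interferon receptor rose by 0.64 ± 0.19 in knockouts. Of 16 tested adapters and signal carriers after JAK (20 listed), 3 rose in controls and 2 in knockouts, with none falling. This was 18.8% and 12.5%, not above the shares of all genes, and the median log2 differences were 0.33 and 0.16. The genes called were the docking proteins Gab2 (1.26 ± 0.18 and 0.81 ± 0.18) and Gab1 (1.08 ± 0.22 and 1.34 ± 0.22) and, in controls, Irs2 (1.78 ± 0.30).

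Of 7 STAT genes, 6 were tested, and 0 were called between plus and minus arrays in either genotype. Stat3 was higher in the knockout by 1.35 ± 0.29 in minus arrays (adjusted p = 1) and by 0.97 ± 0.29 in plus arrays (adjusted p = 0.5421) and did not pass the test. Of 14 tested STAT5 target genes (15 listed), 3 rose and 2 fell in plus arrays of controls, and 2 rose and 2 fell in knockouts. This was 35.7% and 28.6% of the list, against 20.6% and 16.9% of all genes, with both directions among the calls. Besides Cish and Socs3, which are on both lists, the repressor Bcl6 rose by 2.05 ± 0.37 and 2.21 ± 0.37. The growth regulator Myc had log2 differences of -1.43 ± 0.25 in controls and -1.74 ± 0.25 in knockouts, and the cyclin Ccnd1 of -1.46 ± 0.33 and -1.59 ± 0.33. The control value of Ccnd1 was picked after the values were seen. Except for Stat5a and Stat5b, 0 genes of these lists were called between knockout and control arrays, with or without the plus sign.

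For each kinase the 3 genes with the most similar values over the 12 arrays were found by the root mean square difference of centred log2 values, among 10573 genes. Nearest to Jak2 (1421066_at, SD over the arrays of 0.36) were Rbm33, Helz and Nipbl, at 0.15 to 0.16. Nearest to Jak1 (SD 0.57) were Fam193a, Ndst2 and Mprip, at 0.14 to 0.18, and nearest to Jak3 (SD 0.55) were Nob1, Zdhhc4 and Ahcy, at 0.12 to 0.14. Nearest to Tyk2 (SD 0.52) were Bicra, Ripor2 and Zfp395, at 0.21 to 0.23. These values share arrays, naming sets and scaling and are given as a description.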

How the data were processed

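The authors deposited 1 table of linear intensity signals per probe set for 12 one-colour Affymetrix mouse arrays, made with MAS5 per the submitters' processing notes, which give no version. The 2% trimmed mean of every array equalled 500, so the deposited scaling was kept. Probe sets were named through a platform annotation (34958 with 1 symbol, 932 with several, 9211 with none).

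Signals were taken as log2(signal + 32). Probe sets with 1 symbol and a mean log2 value of at least 6.76, the median of all, were fitted with limma 3.58.1 in R 4.3.3 (lmFit, eBayes with a trend). The fit held 4 groups and the naming set as a block and had 6 residual degrees of freedom. Two-sided p-values were adjusted by Benjamini-Hochberg over 18864 probe sets, with a threshold of 0.05. Probe sets past it are called. The chain was tested on simulated data. Arrays have no counting depth, and their number limits the precision.

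The members and lists were chosen with earlier results of these data known. All members were named, and, for each list and comparison, up to 4 genes with the smallest p. Alternatives covered scaling, constant, level filter, block, beta-actin ratio, probe sets a gene and left-out arrays. Naming sets were kept as blocks because arrays within a set deviated together (0.41 to 0.76 in 18 pairs) and those of different sets and groups did not (-0.64 to 0.31 in 36 pairs).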

Additional observations from a re-analysis of the deposited data

Results flagged for a closer look

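The dim Sh2b3 probe set 1450183_a_at differed between knockout and control in opposite directions in minus and plus arrays. The knockout was higher in minus arrays of sets A, B and C, by 0.09, 0.60 and 0.18 on the log2 scale. In plus arrays the values were -0.31, -0.24 and -0.09. The effect in plus arrays less that in minus arrays was -0.50. In a fit without the level filter this was -0.50 ± 0.54 with a limma adjusted p of 0.9806, so it did not exceed its error. The brighter Sh2b3 probe set 1433455_at gave 0.02 ± 0.30 for the same contrast.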

How the results depend on the processing

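The analysis was repeated under 25 alternative settings. Of 105 combinations of tested member probe set and comparison, 4 were called in the analysis as reported, 5 were called only in an alternative and 96 in none. Sh2b3 1433455_at was called in all 25, at 1.62 to 1.93 in controls and 1.63 to 2.07 in knockouts. Jak2 1421066_at lost its call in 9 of 25 in controls and in 10 of 25 in knockouts, with its direction kept.

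The count of members called in controls was 2 as reported, where 18.6% of all probe sets were called. It was 1 with median centring (20.3% of all), with no replicate block, that is no naming set (2.91%), and with a beta-actin covariate (10%). It was 6 without naming set B, where 27.2% of all probe sets were called, and 1 without naming set A (6.73%) or C (3.72%). In knockouts the count was also 2 as reported, where 14.6% of all probe sets were called. It was 1 with no replicate block (1.68%), with only the groups of the contrast (3.63%) and with the beta-actin covariate (3.78%). Without naming set A (4.36%) or C (2.02%) it was 1 too. With median centring it stayed at 2, with Jak3 called lower and Jak2 no longer called (0.55, adjusted p = 0.07352). Leaving out 1 array at a time gave 1 to 3 in both. The share of all probe sets called was then 9.4% to 28% in controls and 6.51% to 17.9% in knockouts. In the 2 knockout comparisons and the interaction the count was 0 in every setting. The 6 called without set B were both Jak2 and both Sh2b3 probe sets, Cbl 1455886_at and Ptpn11 1427699_a_at, the last reversed from -0.38 to 0.64. Jak3 in knockouts passed with a constant of 100, median centring or 1 probe set a gene (adjusted p = 0.03628 to 0.04778), and Cbl in controls with quantile normalization (adjusted p = 0.04148). The causes of these changes were not tested.

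With median centring, 29.8% of calls in controls and 38% in knockouts were higher, against 51.9% and 49.3% as reported, and the median of all probe sets moved to -0.18 and -0.11. The share of all probe sets called ranged over the settings from 2.91% to 28% in controls and from 1.68% to 22.5% in knockouts, lowest with no replicate block. With the array titled KC- as a control, the Jak2 difference in knockouts was 0.72 (limma adjusted p = 0.03151). The 5 probe sets that were not tested were dim, with group means of 15.3 to 116 beside array medians of 59.7 to 114. This limits what could be read from those probe sets, while their genes were read from other probe sets.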
